A study of Mus musculus with 19 samples.

Results

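The genes described here build and steer the outgrowing processes of neurons. They were chosen by name as all probe sets annotated to Stmn2, Stmn3, Gap43, Dcx, Rtn1, Map2, Mapt, Tubb3, Nefl and Nefm, which gave 10 genes and 22 of the 45037 probe sets on the array. Of these, 20 probe sets of 9 genes were bright enough to test, among 31143 probe sets and 13454 genes kept in all. The choice was made with earlier results of these data known, so the background shares given below describe the counts and do not test the set. The tissue was mouse medulloblastoma of the genotype Ptch+/-p53-/-, which every group shared, dissociated and grown under the skin of nude mice (Harlan nu/nu). Groups were 3 tumours given vehicle and called sensitive in the labels, 8 given 40 mg/kg NVP-LDE225 and 8 given 160 mg/kg, all 16 called resistant. NVP-LDE225 blocks Smoothened, the membrane protein that passes on the Hedgehog signal when the receptor Patched no longer restrains it. Treatment and resistance therefore form 1 contrast and cannot be told apart. The flank graft also holds host cells, and its setting differs from the cerebellum in which these tumours arise. Each tumour gave 1 array. Whether the tumours of a group came from separate animals is not said in the labels, and p-values reflect the variation among the sampled tumours alone.

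Growing neurites need microtubules that are rigid in the shaft and labile at the tip. Stathmins bind tubulin and favour disassembly, the tubulins form the polymer itself, and doublecortin, Map2 and tau bind along it and stabilise it. Gap43 sits under the growth cone membrane, and neurofilaments fill and widen mature axons. In the cerebellum, granule neuron precursors divide under Hedgehog signalling. They switch on many of these genes as they leave the cell cycle, migrate and extend their parallel fibres. Hedgehog-driven medulloblastoma arises from this lineage.

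Of the 9 genes measured, 6 were higher in the treated tumours than in the vehicle tumours and 0 were lower. Across both doses, Stmn2, Gap43, Rtn1, Dcx, Tubb3 and Map2 rose (limma, adjusted p under 0.05 over all probe sets), and Stmn3, Mapt and Nefm did not pass. The background was that 2.84% of all genes passed as higher and 2.45% as lower. As the genes were chosen with earlier results of these data known, their distance from this background is not independent support. The median log2 change of the 9 genes was 1.06, against -0.06 over all genes kept. Because the arrays measured whole tumour pieces, more cells of a neuronal type and more RNA per cell cannot be told apart. The count rested on the 3 vehicle tumours. Leaving out vehicle tumour 1 gave a count of 5 (background 1.11%), leaving out vehicle tumour 2 a count of 1 (0.888%), and leaving out vehicle tumour 3 a count of 1 (0.712%), where the gene left in both cases was Dcx. The pair of arrays with the lowest correlation to the rest was that of vehicle tumour 3 and 160 mg/kg tumour 2, and leaving out both also gave a count of 1 (0.831%).

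**Figure D1:**
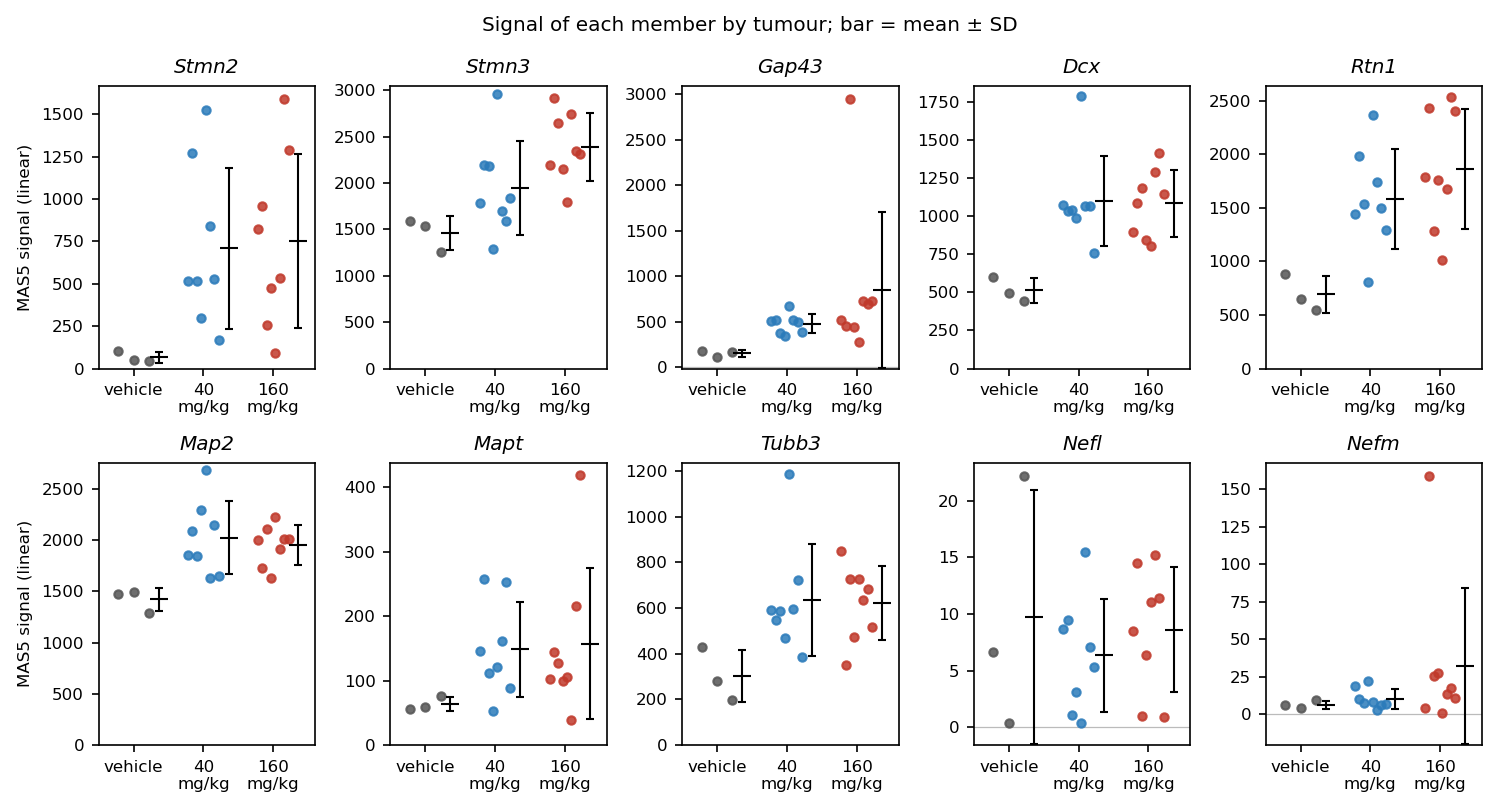
Signal of the 10 genes in each tumour on a linear scale, with 1 dot per tumour (grey, vehicle, n = 3; blue, 40 mg/kg, n = 8; red, 160 mg/kg, n = 8) and the mean ± SD beside each group, for the brightest probe set of a gene (Nefl by 1454672_at, which was too dim to test; a lower SD bar may run below 0). Gap43, Dcx and Map2 show no overlap between vehicle and treated tumours, Stmn2 spreads over a 17-fold range among treated tumours, and the neurofilament panels stay near the bottom of the array's range but for Nefm in 160 mg/kg tumour 2.

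Promoter sequence is shown for Tubb3 and Map2, which both rose, and for Stmn3, a gene of the set that did not pass the test of both doses. The RefSeq promoter table on GRCm38.p6 held windows for 5 of the 10 genes, 8 windows in all (Dcx, Map2, Rtn1, Stmn3 and Tubb3). Each stretch is written 5′ to 3′ on the gene's strand. Capitals mark GC boxes (GGGCGG) and E-boxes (CANNTG, the letters bound by basic helix-loop-helix factors such as Neurod1), both searched on both strands. The Tubb3 and Stmn3 stretches are the 250 bases before the listed start; that of Map2 was cut at the first annotated base of the gene, which lies inside its window, so that 123 of 250 bases are printed and those nearest the listed start are not.
Map2, chr1:66175079-66175201, plus strand: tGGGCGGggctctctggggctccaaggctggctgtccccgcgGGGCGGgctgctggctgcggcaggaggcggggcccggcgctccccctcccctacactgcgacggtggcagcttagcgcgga
Tubb3, chr8:123411303-123411552, plus strand: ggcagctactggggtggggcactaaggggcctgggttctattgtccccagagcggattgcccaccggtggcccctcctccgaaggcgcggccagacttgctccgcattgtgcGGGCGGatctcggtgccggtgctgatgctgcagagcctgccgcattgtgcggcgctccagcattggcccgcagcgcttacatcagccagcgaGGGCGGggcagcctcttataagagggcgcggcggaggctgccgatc
Stmn3, chr2:181314501-181314750, minus strand: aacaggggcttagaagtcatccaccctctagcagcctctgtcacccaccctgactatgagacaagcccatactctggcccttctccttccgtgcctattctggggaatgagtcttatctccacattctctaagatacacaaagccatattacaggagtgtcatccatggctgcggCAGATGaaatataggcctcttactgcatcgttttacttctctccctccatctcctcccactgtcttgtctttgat

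The Map2 stretch of 123 bases and the Tubb3 stretch of 250 bases each held 2 GC boxes and 0 E-boxes, with a GC content of 77.2% and 68%. The equal counts belong to unequal lengths, and the whole Map2 window of 250 bases held 5 GC boxes at a GC content of 81.2%. The Stmn3 stretch of 250 bases held 0 GC boxes and 1 E-box, CAGATG, with a GC content of 48.8%. Among all 32851 windows of 250 bases before a start, 32.7% held a GC box and 66.2% an E-box; at 123 bases these shares were 13.2% and 42.7%. Over the 8 windows of the 5 genes, 4 held a GC box and 2 an E-box. The printed stretches do not stand for all genes that rose. Both Dcx windows held 0 GC boxes and 0 E-boxes, at a GC content of 44.8% and 41.6%. The Rtn1 windows held 1, 3 and 0 GC boxes at 45.2%, 72.4% and 46%, and the last of them held 1 E-box, CAGATG as in Stmn3. Of the other motifs searched in them, CAGATG, itself an E-box, stood in 2 (14.4% of all windows), CAGCTG, also an E-box, in 0 (13%) and TATAAA in 2 (12.4%), where a single site lay in both overlapping windows of Dcx. The separate left and right parts of the neuronal silencer element, TTCAGCACC and GGACAG, stood in 0 (0.301%) and 3 (18.7%) of them. These counts describe letters in short windows and say nothing of binding.

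Stmn2 encodes a stathmin anchored to Golgi-derived membranes and enriched in growth cones. Its brighter probe set read 103, 49.2 and 47.2 in the vehicle tumours, 168 to 1527 (median 523) at 40 mg/kg and 93.5 to 1588 (median 679) at 160 mg/kg. All treated tumours except 160 mg/kg tumour 5, the lowest, lay above the vehicle range. The log2 change over both doses was 3.14 ± 0.64 (SE; adjusted p = 0.00851 by limma), an 8.82-fold difference on the scale of log2(signal + 2.5), on which all changes here are given. The second probe set gave 2.91 ± 0.76 and an adjusted p of 0.034, and across the 16 treated tumours the 2 probe sets had a Pearson r of 0.99, as 2 readings of the same RNA.

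Stmn2 also varied most among tumours of 1 dose, next to Nefm. The SD of its log2 signal within dose groups was 1.20, at percentile 97.5 of all genes, whose median was 0.31. The highest treated tumour, 160 mg/kg tumour 7, stood 17-fold above the lowest. Map2 lay at the other end with an SD of 0.20 (percentile 24.5), and Dcx at 0.32 was near the middle (percentile 52).

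Stmn3 encodes the related stathmin SCLIP. It read 1595, 1536 and 1259 in the vehicle tumours, 1287 to 2963 (median 1812) at 40 mg/kg and 1794 to 2923 (median 2331) at 160 mg/kg. All 8 tumours at 160 mg/kg lay above the vehicle range, and so did 7 of the 8 at 40 mg/kg, tumour 4 being the exception. Over both doses the log2 change of 0.54 ± 0.17 (SE) did not pass (limma, adjusted p = 0.0682), nor did that of the second probe set (0.51, adjusted p = 0.0853).

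Gap43 encodes a palmitoylated substrate of protein kinase C on the inner face of the growth cone membrane. Its single probe set read 183, 113 and 167 in the vehicle tumours. At 40 mg/kg it ran from 344 to 678 (median 503) and at 160 mg/kg from 278 to 2941 (median 607), where tumour 3 alone gave 2941 and the next tumour 728. No treated tumour overlapped the vehicle range. The log2 change over both doses was 1.85 ± 0.40 (SE; adjusted p = 0.012 by limma), and it lay between 1.65 and 1.98 when any 1 tumour was left out.

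Dcx encodes doublecortin, which binds microtubules in migrating young neurons. Its brightest probe set read 604, 496 and 442 in the vehicle tumours, 759 to 1787 (median 1053) at 40 mg/kg and 806 to 1416 (median 1117) at 160 mg/kg, with no overlap. The log2 change was 1.06 ± 0.18 (SE; adjusted p = 0.00248 by limma). Dcx was the gene of the set whose call was least tied to single arrays: it passed in all 19 fits that left out 1 array, against 17 for Stmn2, Gap43, Rtn1 and Tubb3 and 16 for Map2. Of its 4 probe sets, 3 passed (2.64% of all probe sets passed as higher), with log2 changes of 1.06 to 1.19. The fourth, 1418140_at, changed by 1.31 ± 0.42 and did not pass (adjusted p = 0.0762). It read 457 in 40 mg/kg tumour 8, where the next treated tumour at that dose gave 114 and the other 3 Dcx probe sets were at their lowest among treated tumours.

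Rtn1 encodes a reticulon, a protein that bends the endoplasmic reticulum membrane and is abundant in neurons. It read 880, 646 and 547 in the vehicle tumours, 803 to 2366 (median 1518) at 40 mg/kg and 1010 to 2536 (median 1774) at 160 mg/kg. Only 40 mg/kg tumour 4, at 803, fell within the vehicle range. The log2 change was 1.28 ± 0.26 (SE; adjusted p = 0.00808 by limma).

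Map2 encodes the microtubule-binding protein of dendrites and cell bodies. The brightest of its 4 probe sets read 1474, 1493 and 1293 in the vehicle tumours, 1631 to 2687 (median 1971) at 40 mg/kg and 1627 to 2226 (median 2002) at 160 mg/kg, again with no overlap. Its log2 change of 0.48 ± 0.12 (SE; adjusted p = 0.0261 by limma) was the smallest to pass among the 9 genes, and it missed the threshold when any 1 vehicle tumour was left out, with an adjusted p of up to 0.192. Probe sets 1421327_at and 1421328_at rose by 1.18 ± 0.23 and 0.98 ± 0.17, and 1440699_at, at 0.34 ± 0.20, did not pass (adjusted p = 0.329).

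Mapt encodes tau, the corresponding protein of axons. It read 55.8, 59.4 and 76 in the vehicle tumours, 52.3 to 257 (median 133) at 40 mg/kg and 39.4 to 419 (median 116) at 160 mg/kg. In 14 of 16 treated tumours it exceeded every vehicle tumour, while 40 mg/kg tumour 4 and 160 mg/kg tumour 6 lay below all of them. Its log2 change of 1.02 ± 0.46 (SE) did not pass (limma, adjusted p = 0.201), and none of its 4 probe sets did, with changes of 0.55 to 1.51 and adjusted p-values of 0.0596 to 0.387. The 95% interval of the brightest was 0.07 to 1.97.

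Tubb3 encodes the beta-tubulin isotype that is widely used to mark neurons. It read 427, 280 and 199 in the vehicle tumours, 384 to 1187 (median 589) at 40 mg/kg and 351 to 851 (median 660) at 160 mg/kg. The ranges overlapped through vehicle tumour 1, above which 14 of 16 treated tumours lay. The log2 change was 1.06 ± 0.26 (SE; adjusted p = 0.0267 by limma). It ran from 0.79 to 1.34 over the fits without 1 tumour.

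The neurofilament subunits stayed dim. Both Nefl probe sets read between 0.4 and 22.2 over all 19 tumours, passed the brightness filter on 0 arrays and were not tested. Nefm read 5.8, 4 and 9.1 in the vehicle tumours and 0.9 to 159 in the treated ones (median 10.2). It was kept because 3 arrays, all of 160 mg/kg tumours, exceeded the filter, and 160 mg/kg tumour 2 stood alone at 159. Its log2 change of 0.76 ± 0.71 (SE) did not pass (limma, adjusted p = 0.553).

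**Figure D2:**
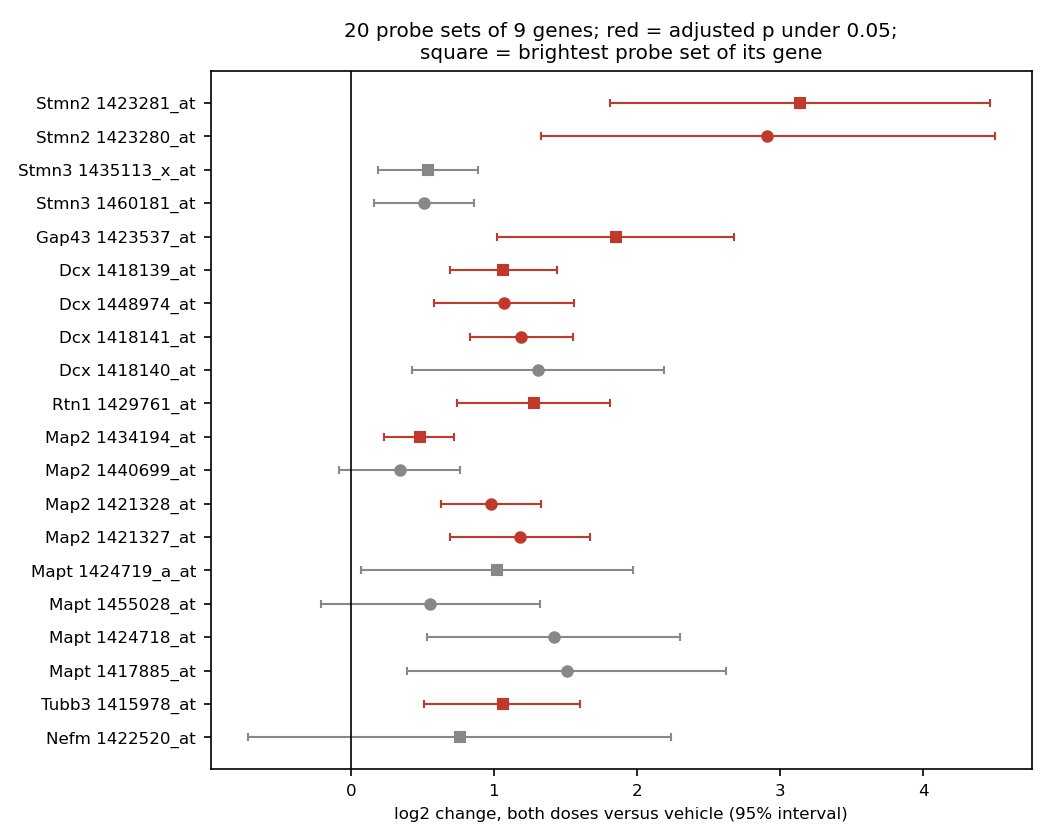
Log2 change of signal over both doses against vehicle, with its 95% interval, for the 20 probe sets of 9 genes that were tested (16 treated and 3 vehicle tumours). Red marks an adjusted p under 0.05 and squares mark the brightest probe set of a gene; the Stmn2 probe sets lie near 3, the Map2 probe sets spread from 0.34 to 1.18, and the Mapt and Stmn3 probe sets are all grey.

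Counted over tumours by the brightest probe set, Gap43, Dcx and Map2 were higher in all 16 treated tumours than in all 3 vehicle tumours. This held for 1.99% of all genes. With 1 exception allowed, Stmn2, Stmn3 and Rtn1 joined them, against 4.44% of all genes. Some other probe sets gave fewer treated tumours above all vehicle tumours. The number was 12 for Map2 1440699_at, 15 for Dcx 1418140_at and 14 for the second Stmn3 probe set.

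Each dose was also set against the vehicle tumours, which both comparisons share. At 40 mg/kg, 4 of the 9 genes rose and 0 fell (background 1.7% and 0.847% of genes): Stmn2 by 3.15 ± 0.69 (SE, log2), Rtn1 by 1.16 ± 0.28, Dcx by 1.07 ± 0.19 and Map2 by 0.50 ± 0.13, with adjusted p-values from limma of 0.0196, 0.0313, 0.00701 and 0.0439. Gap43 (1.62, adjusted p = 0.0506) and Tubb3 (1.06, adjusted p = 0.0528) fell just short. At 160 mg/kg, 7 of the 9 rose and 0 fell (background 2.45% in each direction), namely the same 6 as over both doses and Stmn3, by 0.70 ± 0.18 (adjusted p = 0.0328). Mapt and Nefm passed at neither dose. These calls are of the brightest probe sets. By limma, the second probe set of Stmn3 missed at 160 mg/kg (adjusted p = 0.0522). That of Stmn2 missed at both doses (limma, adjusted p = 0.0556 at 40 mg/kg and 0.0571 at 160 mg/kg). Dcx 1418140_at and Map2 1440699_at also missed at each dose. At 40 mg/kg, leaving out vehicle tumour 1, 2 or 3 gave counts of 1, 1 and 0 (background 0.613%, 0.448% and 0.405%), and leaving out treated tumour 2 or 5 gave a count of 2. At 160 mg/kg, leaving out vehicle tumour 2 gave a count of 2 (background 1.01%) and leaving out vehicle tumour 3 a count of 0 (0.6%). That count was 4 without 160 mg/kg tumours 6 and 7, whose source names say resistant where those of the other treated tumours say treated.

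Between the doses, 0 of the 9 genes passed (limma, adjusted p under 0.05), and so did 0% of all genes; at an unadjusted p under 0.05 there were 1 of the 9 and 997 of all genes (7.41%). The 1 was Stmn3, higher by 0.32 ± 0.13 (SE, log2) at 160 mg/kg, with an unadjusted p of 0.0247 and an adjusted p of 0.688. For Dcx, Tubb3 and Map2 the difference was -0.01, -0.01 and -0.04, with 95% intervals of -0.31 to 0.29, -0.44 to 0.43 and -0.24 to 0.15. The interval for Stmn2, -1.08 to 1.03, left room for a doubling in either direction, and that for Gap43 ran from -0.19 to 1.12. The Gap43 difference of 0.47 rested on 160 mg/kg tumour 3, without which it was 0.15 (limma, adjusted p = 0.934).

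The genes were then compared across the 16 treated tumours, leaving out the vehicle tumours so that the treatment difference could not enter. Of 36 pairs among the 9 genes, 32 had a positive Pearson r and 4 a negative one, with a median of 0.23 and a range of -0.52 (Tubb3 and Nefm) to 0.86. Of these, 8 pairs involve Nefm, which exceeded the brightness filter on 3 arrays alone; over the 28 pairs without it, a set chosen after seeing the data, 27 were positive and 1 negative, with a median of 0.27 and a lowest r of -0.12. No such summary was made for pairs of other genes, so these counts of positive pairs stand without a background. After adjustment over the 36 pairs, 3 passed by r and 2 by rho, and only Stmn2 with Rtn1 passed by both. Stmn2 and Rtn1 went together most closely, with r = 0.86 and rho = 0.90 (permutation tests, Benjamini-Hochberg adjusted p = 0.00036 and 0.00072; the unadjusted p of 1e-05 for r is the smallest that the 100000 resamples can give). This pair had an r of 0.81 within the 40 mg/kg tumours and 0.97 within the 160 mg/kg tumours, and 0.87 without the 2 tumours farthest from the median of Stmn2.

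Map2 and Tubb3 formed a second pair, with r = 0.69 (permutation, adjusted p = 0.0419) and rho = 0.52 (adjusted p = 0.154). Their r was 0.67 at 40 mg/kg and 0.75 at 160 mg/kg, but 0.47 without the 2 tumours farthest from the median of Map2. Stmn3 and Rtn1 had r = 0.70 (permutation, adjusted p = 0.0392) and rho = 0.63 (adjusted p = 0.0785), with r = 0.55 without the 2 tumours farthest from the median of Stmn3. Gap43 and Dcx passed by rank alone, with rho = 0.76 (permutation, adjusted p = 0.0166) and r = 0.50 (adjusted p = 0.171), and r was 0.71 without the 2 tumours farthest from the median of Gap43. By r, neither the relation of Map2 and Tubb3 nor that of Stmn3 and Rtn1 kept its call when either of 2 tumours was left out: without 160 mg/kg tumour 2, and equally without 40 mg/kg tumour 5, only 1 of the 36 pairs passed by r, that of Stmn2 and Rtn1. Map2 and Stmn2, by contrast with the first pair, had an r of 0.08.

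The tumours at the ends of these ranges differed from gene to gene. Stmn3, Dcx, Map2 and Tubb3 were all highest in 40 mg/kg tumour 5, whereas Stmn2 and Rtn1 were highest in 160 mg/kg tumour 7, Gap43 in 160 mg/kg tumour 3 and Mapt in 160 mg/kg tumour 8. Stmn2, Gap43 and Nefm were lowest in 160 mg/kg tumour 5, and Stmn3 and Rtn1 in 40 mg/kg tumour 4.

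**Figure D3:**
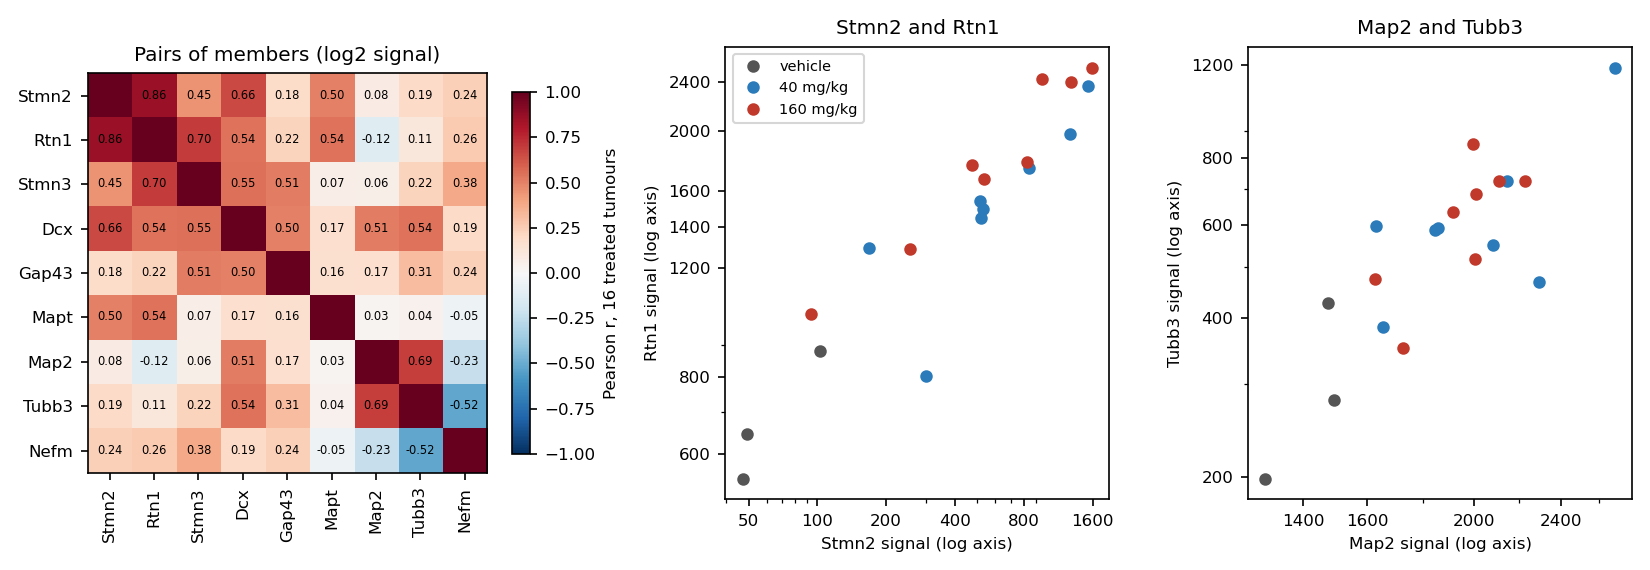
Left, Pearson r of log2 signal over the 16 treated tumours for each pair of the 9 genes tested; middle and right, signal of Stmn2 against Rtn1 and of Map2 against Tubb3 on log axes, with 1 dot per tumour (grey, vehicle; blue, 40 mg/kg; red, 160 mg/kg). Stmn2 and Rtn1 follow each other at both doses (r = 0.86), while the Map2 and Tubb3 cloud leans on the blue dot at the top right, 40 mg/kg tumour 5.

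Among 13445 other genes, those most like the mean of the 9 genes (each standardised over the 16 treated tumours) were Stmn4 (r = 0.88), Stxbp5l (0.86), 1500004A13Rik (0.84), Shd (0.82) and Fut9 (0.82). With Nefm left out of the mean, 4 of these 5 stayed among the first 5, and Pkia (0.84) took the place of Fut9. Stmn4 is the fourth stathmin, and Stxbp5l encodes tomosyn-2, a protein of transmitter release. Most like Stmn2 were Kif5a (0.91), a neuronal kinesin heavy chain, Mmp24 (0.90), Serping1 (0.89), the host transcript of the neuronal microRNA miR-124 Mir124a-1hg (0.88) and Nrep (0.88). These values describe the same 16 arrays and carry no test.

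The wider cytoskeleton and growth cone was covered by 67 other genes sorted by role, also listed with earlier results of these data known. Of these, 65 were bright enough to test. Over both doses 18 of them rose and 1 fell (background 2.84% and 2.45%), and their median log2 change was 0.32. Leaving out vehicle tumour 1, 2 or 3 brought this total to 9, 6 or 3 (background as higher 1.11%, 0.888% and 0.712%). Leaving out the pair of least correlated arrays brought it to 3 (0.831%). At 40 mg/kg 12 rose and 0 fell (background 1.7% and 0.847%), and at 160 mg/kg 16 rose and 1 fell (2.45% in each direction). Between the doses 0 passed by limma, as did 0% of all genes, and 1 had an unadjusted p under 0.05 (7.41% of all genes).

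Among stathmins, Stmn4 rose 7.47-fold (log2 change 2.90 ± 0.55 SE, limma, adjusted p = 0.00581). Its mean signal was 79.1 ± 65.7 (SD, n = 3) under vehicle and 337 ± 148 (n = 8) and 406 ± 147 (n = 8) at the lower and higher dose. The fold comes from means of log2 values and is larger than the ratio of these mean signals, and the vehicle signals were widely scattered. Stmn1 changed by 0.19 and did not pass (limma, adjusted p = 0.226). Of 9 tubulins 3 rose. Tubb4a, a brain beta-tubulin, rose 5.91-fold (adjusted p = 0.000559), Tubb2a 2.61-fold (adjusted p = 0.00111) and Tuba1a, the main alpha-tubulin of young neurons, 1.25-fold (adjusted p = 0.0106). Tubb2b had a log2 change of 0.53 (limma, adjusted p = 0.0637), Tubb5 of 0.21 and Tubb6 of -0.36. None of these passed, and all were named after their values were seen. The isotypes thus ranged from below 0 to above 2 on the log2 scale.

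Of 12 microtubule-associated proteins 3 rose and 1 fell. Dclk1, the doublecortin-like kinase, rose by 0.49 ± 0.10 (SE, log2) and Map1b, an early axonal protein, by 0.91 ± 0.24, and Map1a, named after its values were seen, by 0.74 ± 0.20 (limma, adjusted p = 0.012, 0.0367 and 0.0383). Nav3, a neuron navigator that tracks microtubule ends, fell by 0.87 ± 0.20 (adjusted p = 0.0173) and was lower in all 16 treated tumours than in any vehicle tumour. Of 5 collapsin response mediators, which carry semaphorin signals to tubulin, Crmp1 rose 2.29-fold (adjusted p = 0.00212); Dpysl5 (1.77, adjusted p = 0.0892) and Dpysl3 (1.42, adjusted p = 0.113) had larger or similar log2 changes with wide errors of 0.59 and 0.51 and did not pass.

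Of 6 growth cone membrane proteins, 2 rose, and these were Gpm6a, by 1.77 ± 0.36 (SE, log2), and Marcks, by 0.29 ± 0.07 (limma, adjusted p = 0.00818 and 0.0253). Basp1, which like Gap43 binds the inner membrane and calmodulin, changed by 0.47 and did not pass (adjusted p = 0.0762). Rtn4, known as Nogo, rose by 0.39 ± 0.10 among 3 other reticulons (adjusted p = 0.0254), while Rtn2 (0.48, adjusted p = 0.0714) and Rtn3 (0.42, adjusted p = 0.17) did not pass. Of 6 actin regulators Tmsb10, which holds actin monomers, rose by 0.27 ± 0.07 (limma, adjusted p = 0.0325); drebrin, Dbn1 (0.67, adjusted p = 0.0925), and Enah (0.27, adjusted p = 0.493) did not pass.

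Motor and kinase genes rose in part. Of 8 kinesins, Kif5a rose 3.46-fold, Kif21b 2.88-fold and Kif5c 1.57-fold (limma, adjusted p = 0.0113, 0.0179 and 0.0398). Kif5b, the kinesin-1 heavy chain of most tissues, changed by 0.08 (adjusted p = 0.64). Kif1a changed by 0.84 and did not pass either (limma, adjusted p = 0.256). Of 7 kinases and partners that phosphorylate microtubule proteins, Mapk10, the neuronal JNK, rose 3.05-fold, Cdk5r1, the neuronal activator of Cdk5, 1.59-fold and Mapk8 1.25-fold (adjusted p = 0.0262, 0.0195 and 0.0409). Cdk5 itself changed by 0.07 (limma, adjusted p = 0.761). Cdk5, Kif5b and Kif1a were named after their values were seen. Of the 3 nuclear migration genes, which link dynein to the nucleus, 0 passed: Pafah1b1 changed by 0.13, Ndel1 by 0.03 and Nde1 by -0.03 (limma, adjusted p = 0.548, 0.896 and 0.945).

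Of the intermediate filaments, 4 of 5 were tested and 0 passed (limma, 3 at an unadjusted p under 0.05). Nes, the filament of neural progenitors, changed by -1.07 ± 0.42 (SE, log2; adjusted p = 0.139), and its signal was below every vehicle tumour in 15 of 16 treated tumours. Vim changed by -0.48 ± 0.22 (adjusted p = 0.211), and Ina, the neuronal alpha-internexin, by 0.82 ± 0.25 (adjusted p = 0.0615).

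**Figure D4:**
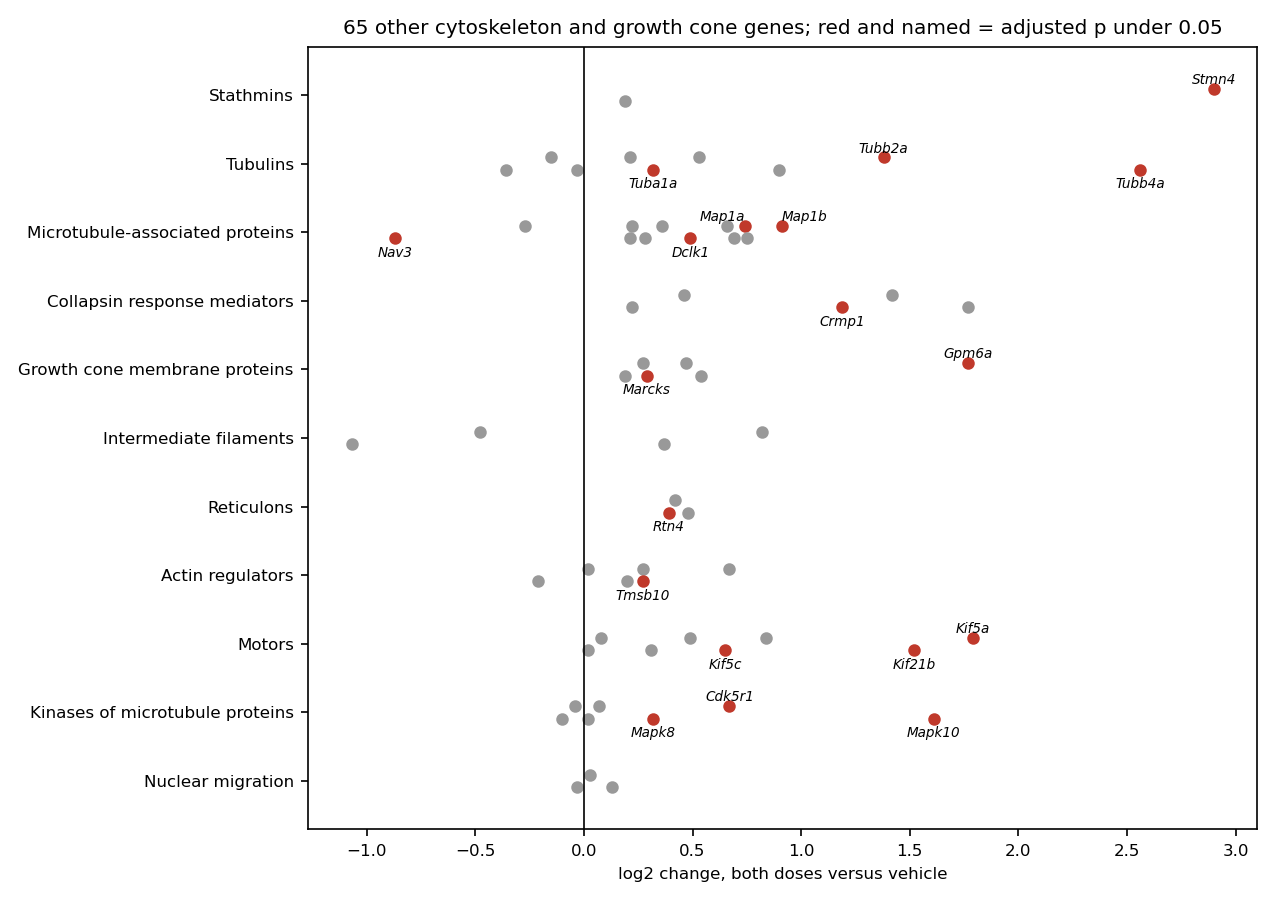
Log2 change of signal over both doses against vehicle for the 65 other cytoskeleton and growth cone genes tested, 1 dot per gene (brightest probe set; 16 treated and 3 vehicle tumours), sorted by role. Red named dots have an adjusted p under 0.05; they lie right of 0 in all roles but intermediate filaments and nuclear migration, which have none, and Nav3 is the single red dot left of 0.

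Markers of the labelled tissue were present: 9 of 9 granule neuron lineage genes were bright enough to test, and their summed signal was 9364 to 9764 under vehicle, 12054 to 15461 at the lower dose and 10180 to 17499 at the higher dose. Of these, Zic1, Neurod1 and Nhlh2 rose (limma, adjusted p = 0.0179, 0.0125 and 0.000838), and the others did not pass. Atoh1 (log2 change -0.87), Barhl1 (-0.59) and Meis1 (-0.49) were lower, and Pax6 (0.40), Nhlh1 (0.33) and Zic2 (0.02) higher. Atoh1, the precursor factor, read 1196 to 1422 in vehicle and 22.5 to 1954 in treated tumours. Barhl1 read 608 to 624 and 32.7 to 910. The sum is weighted to Zic1 and Neurod1, the brightest of the list. Peripheral and autonomic neurons, which the flank could add, express many of the 10 genes too. Of the 8 genes listed for them 5 were tested and 0 passed, but their median log2 change was 1.03 and their summed signal ran from 446 to 716 under vehicle, from 566 to 2175 at the lower dose and from 884 to 2214 at the higher dose. Prph, a defining marker of that list, stayed at 2.9 to 32.4 in all tumours. Isl1 (2.81, adjusted p = 0.0507) and Chrna3 (1.03, adjusted p = 0.093) had the smallest p-values by limma. Th changed by 1.48 (limma, adjusted p = 0.182), Prph by 0.37 and Dbh by -0.41. The part of these cells in the result was not tested.

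Across the treated tumours, the log2 signal of Stmn2 and the mean log2 signal of the tested markers of 10 cell types or states gave no relation that passed after adjustment. The strongest were those with mitotic genes (r = -0.55, rho = -0.53; permutation, adjusted p = 0.155 and 0.344), with skeletal muscle (r = 0.51, adjusted p = 0.155) and with peripheral and autonomic neurons (r = -0.50, adjusted p = 0.155). Summed in the order vehicle, 40 mg/kg and 160 mg/kg, skeletal muscle markers ran from 1458 to 3714, 247 to 16210 and 254 to 6223, with 0 of 8 passing the test. Mitotic markers ran from 8742 to 11374, 7695 to 9739 and 5813 to 11137, and 1 of 7 fell (Kif11, by 0.53; adjusted p = 0.0494). Astrocyte markers ran from 3133 to 3273, 1338 to 2836 and 1321 to 2577, so that every treated tumour was below the vehicle range, and 1 of 5 fell (Gja1, by 1.40; adjusted p = 0.0283). Gja1 and Slc1a2 (-0.68, adjusted p = 0.148) carried most of that sum; Slc1a3 (0.25), Aqp4 (0.73) and Gfap (-0.17) did not pass, and the median change of the list was -0.17. Of the fibroblast, endothelial, macrophage, Schwann cell and oligodendrocyte lists, 0 genes passed. The part of each in the result was not tested.

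As to the arrays, the median signal ran from 32.7 to 49.7, and any 2 arrays correlated at r = 0.878 to 0.968 over the probe sets kept, with 0 pairs identical.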

How the data were processed

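The authors deposited 1 linear signal intensity per probe set and array, computed with MAS5 per the submitters' processing notes. MAS5 summarises the probes of a probe set after background subtraction and scales each array, so changes are relative to the whole array. The trimmed mean (2% off each end), averaged over the arrays, was 150. Probe set names come from GEO's table of the full Mouse 430 2.0 platform, although the series itself speaks of the smaller 430A 2.0; 64 control probe sets were left out, and of the rest 34945 had 1 symbol, 932 several and 9160 none. Replicate numbers and groups came from the sample descriptions. The array names no genome build.

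Log2(signal + 2.5), the pseudocount being the 10th percentile of all deposited values, was tested with limma 3.58.1 in R 4.3.3 (lmFit, eBayes with a variance trend, 3 group means, 19 arrays, 16 residual degrees of freedom). A log2 change on this scale understates that of dim genes. A probe set was kept if it exceeded the 40th percentile in 3 or more arrays. P-values are two-sided and Benjamini-Hochberg adjusted over 31143 probe sets. A gene is its brightest kept probe set, and signals of different probe sets are not compared as levels. Correlations used 100000 resamples (scipy 1.17.1). On simulated data for both doses against vehicle with 31143 probe sets, 66% of log2 changes of 1 and 87% of changes of 2 were recovered. Of the calls, 6.1% were false. The simulated noise was normal and independent between probe sets. At each size 100 probe sets were raised and none lowered, so these rates need not hold for the real arrays.

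The 10 genes and all lists were chosen with earlier results of these data known. Named were all 10 genes, the 3 related genes with the smallest adjusted p per role, the 5 genes most like the mean and the 5 most like Stmn2, and defining markers of cell types. Map1a, Tubb2b, Tubb5, Tubb6, Kif1a, Kif5b, Cdk5 and other marker genes were named after their values were seen. Alternatives covered normalization, pseudocount, filter, variance model, array weights, samples in the fit, replicate block, probe set choice and left-out arrays. No detection calls, batches or scan dates were used here, and the number of vehicle arrays, 3, limits the precision.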

Additional observations from a re-analysis of the deposited data

Results flagged for a closer look

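By Dixon's criterion on log2 signal, 3 of 44 groups held 1 tumour far from the others. A group was the 8 tumours of 1 dose and a probe set of the 10 genes. Chance alone gives about 1 in 20 if values are normal and groups independent, but some groups share a gene. The signals quoted here are linear. Gap43 read 2941 in 160 mg/kg tumour 3, where the next tumour at that dose read 728. The brightest Dcx probe set read 1787 in 40 mg/kg tumour 5, where the next read 1074. Dcx probe set 1418140_at read 457 in 40 mg/kg tumour 8, where the next read 114; over the 16 treated tumours its r with the brightest Dcx probe set was -0.06, and 0.63 without that tumour.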

How the results depend on the processing

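Against vehicle, every log2 change of the 9 genes kept its sign under every alternative that could test it, at each dose and over both; counts of calls moved more. With the replicate number as a block, the counts of the 10 genes became 5 over both doses, 0 at 40 mg/kg and 6 at 160 mg/kg. Those of the other 65 became 12, 4 and 8, when 1.96%, 1.01% and 1.81% of all genes passed as higher. Same-numbered arrays did not go together (r of deviations -0.128 to 0.09 over 14 pairs, and 0 of 19 arrays correlated best with its own number). This check showed no sign of pairing by number, but it cannot exclude a shared animal or day. Array weights gave 7 of the 9 at 40 mg/kg and 38, 36 and 33 of the 65 over both doses, at 40 and at 160 mg/kg, when 13.1%, 11.9% and 8.93% of all genes passed as higher. Without a variance trend the counts were 2 and 4 of the 9 at 40 and 160 mg/kg and 10 of the 65 at 160 mg/kg. With only the groups compared in the fit, 20 and 9 of the 65 passed at 40 and 160 mg/kg. Without 160 mg/kg tumours 6 and 7, 4 of the 9 passed at 160 mg/kg. For the fits without a variance trend, with only the groups compared or without those tumours, the share of all genes is not given here. Without the 2 arrays least like the others, an alternative added after seeing the data, 1, 0 and 0 of the 9 and 3, 3 and 3 of the 65 passed. In that alternative 0.831%, 0.604% and 0.649% of all genes passed as higher. Leaving out each array in turn gave 1 to 7, 0 to 6 and 0 to 7 of the 9 and 3 to 22, 2 to 16 and 3 to 20 of the 65. Relations between pairs that passed by Pearson r numbered 4 of 28 without Nefm and fell from 3 to 1 without 40 mg/kg tumour 5 or 160 mg/kg tumour 2 (both added after seeing the data). Between doses, differences near 0 changed sign and never passed. With array medians subtracted they became 0.03 (Stmn2), 0.05 (Dcx), 0.02 (Map2), 0.01 (Mapt) and 0.05 (Tubb3). With array weights they became 0.07 (Stmn2), 0.02 (Dcx) and 0.07 (Tubb3), without 160 mg/kg tumours 6 and 7 0.10 (Mapt), and without the 2 arrays 0.10 (Tubb3). Leaving out single arrays gave -0.28 to 0.34 (Stmn2), -0.08 to 0.09 (Dcx), -0.08 to 0.02 (Map2), -0.29 to 0.19 (Mapt) and -0.10 to 0.13 (Tubb3). Subtracting array medians moved Map2 from 0.45 to 0.55 at 160 mg/kg. The cause of these moves was not tested. Dim signals limit Nefl, Nefm and Mapt.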

Other observations

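The log2 ratio of Map2 probe set 1421328_at to 1434194_at, a pair chosen because their changes were seen to differ, is given as a description with no test. It was -2.84 ± 0.16 (SD, n = 3) in vehicle and -2.33 ± 0.19 (SD, n = 16) in treated tumours. The difference was 0.50, and 15 of 16 treated tumours lay above all vehicle tumours.

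Myelin basic protein, a gene of myelin-forming cells, was read by several probe sets, and its brightest on the log scale did not pass. Another, 1433532_a_at, singled out after its values were seen, read 1.3 to 14.9 in vehicle tumours, 21.2 to 5074 (median 719) at 40 mg/kg and 45.3 to 4220 (median 132) at 160 mg/kg. All 16 treated tumours lay above the vehicle range, and 5 of them exceeded 1000. The Schwann cell sums for these tumours therefore depend on which probe set stands for this gene.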
